A study of Mus musculus with 109 samples.

Results

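The 10 genes described here are Hif1a, Slc2a1, Hk1, Hk2, Pfkp, Pfkfb3, Pgk1, Eno1, Pkm and Ldha, genes of glucose uptake, glycolysis, lactate formation and the hypoxia response. They were chosen by name, with earlier results of these data known, from the 13902 genes present in at least 1 of 4 deposited expression tables. The table of floxed controls holds 9 of them, the Il10ra mutant table and the double mutant table hold all 10, and the table of untreated groups holds 8. The study measured RNA of mouse microglia, the resident macrophages of the brain, by MARS-seq, which counts tags at the 3' end of transcripts. Cells were sorted by their CD45 and CD11b. Animals were left untreated or had received 2.5 mg/kg lipopolysaccharide (LPS), a bacterial cell wall component, into the peritoneum.

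Il10ra mutants (CX3CR1-CreER:IL10Rafl/fl) numbered 9 libraries untreated, 7 at 6 h, 5 at 24 h and 5 at 48 h after LPS. Their floxed controls (IL10Rafl/fl, without Cre) numbered 6 untreated, 6 at 6 h, 4 at 24 h, 6 at 48 h and 4 at day 7. Double mutants (CX3CR1-CreER:IL10Rafl/fl:TNFfl/fl) numbered 5 untreated, 6 at 6 h and 4 at 48 h. Doubly floxed controls (IL10Rafl/fl:TNFfl/fl, without Cre) numbered 6 untreated, 5 at 6 h and 6 at 48 h. A further 4 libraries came from untreated C57BL/6 wild-type mice. The Cre is driven by Cx3cr1, which other tissue macrophages and monocytes also express, and no control genotype in the labels names the Cre. The labels used here give no age and do not say which libraries came from separate animals, so p-values measure the spread between these libraries, which may be partly technical. Libraries whose labels open with the same name, such as AS_2nd_exp or Anat_LPSchallenged, are called an experiment here. Not every such name calls itself an experiment, so this grouping is an inference.

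Glycolysis splits glucose into pyruvate in the cytosol, and lactate dehydrogenase turns pyruvate into lactate while restoring the NAD that glycolysis uses. HIF-1, a dimer of HIF-1 alpha and ARNT, activates many glycolytic genes at low oxygen; at normal oxygen HIF-1 alpha is hydroxylated and degraded, so its protein level is set largely after transcription. Macrophages stimulated with LPS are known for raised glucose uptake and lactate release, and interleukin 10 is known to restrain macrophage activation.

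The promoters of the genes that carry the results are shown because HIF-1 binds a short core motif, ACGTG or GCGTG. Each window runs from 250 bases before to 50 after an annotated start (RefSeq, GRCm38.p6), written 5' to 3' on the gene's strand, and capitals mark a match to the core on either strand. For genes with several windows the outermost is printed.
Slc2a1, chr4:119108495-119108794, plus strand: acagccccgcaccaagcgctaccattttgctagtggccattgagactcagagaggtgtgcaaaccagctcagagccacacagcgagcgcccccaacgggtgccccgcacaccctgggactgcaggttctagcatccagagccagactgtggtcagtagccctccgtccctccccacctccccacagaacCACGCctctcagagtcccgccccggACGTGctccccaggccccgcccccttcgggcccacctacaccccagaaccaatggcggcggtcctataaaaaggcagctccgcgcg
Pfkfb3, chr2:11553880-11554179, minus strand: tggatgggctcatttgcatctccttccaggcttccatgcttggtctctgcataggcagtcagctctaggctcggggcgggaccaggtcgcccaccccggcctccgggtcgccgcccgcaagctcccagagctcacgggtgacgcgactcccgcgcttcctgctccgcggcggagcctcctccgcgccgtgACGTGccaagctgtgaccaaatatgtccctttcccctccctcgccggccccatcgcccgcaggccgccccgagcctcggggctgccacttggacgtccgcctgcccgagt
Pkm, chr9:59656326-59656625, plus strand: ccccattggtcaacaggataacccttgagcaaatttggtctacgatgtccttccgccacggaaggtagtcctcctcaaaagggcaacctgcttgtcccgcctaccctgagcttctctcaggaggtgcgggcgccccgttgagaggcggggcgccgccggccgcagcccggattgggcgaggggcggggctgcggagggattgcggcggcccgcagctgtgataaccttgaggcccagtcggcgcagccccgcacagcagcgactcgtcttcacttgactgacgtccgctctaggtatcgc
Ldha, chr7:46845554-46845853, plus strand: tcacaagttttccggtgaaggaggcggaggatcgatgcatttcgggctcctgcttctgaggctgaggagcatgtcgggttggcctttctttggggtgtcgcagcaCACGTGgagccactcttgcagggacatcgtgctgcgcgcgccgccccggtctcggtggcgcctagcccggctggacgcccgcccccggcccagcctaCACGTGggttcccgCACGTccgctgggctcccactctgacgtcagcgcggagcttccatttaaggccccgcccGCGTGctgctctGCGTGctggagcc
Hk1, chr10:62379859-62380158, minus strand: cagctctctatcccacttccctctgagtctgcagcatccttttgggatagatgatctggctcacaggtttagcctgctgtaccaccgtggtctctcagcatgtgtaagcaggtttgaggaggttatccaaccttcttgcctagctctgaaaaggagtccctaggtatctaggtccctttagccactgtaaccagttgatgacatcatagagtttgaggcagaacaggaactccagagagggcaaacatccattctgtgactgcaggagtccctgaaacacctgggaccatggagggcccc

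All 10 genes matched a RefSeq symbol, with 16 windows in all. Slc2a1 spans chr4:119108745-119137330, Pfkfb3 chr2:11471430-11554071, Pkm chr9:59656576-59679372, Ldha chr7:46842274-46855627 and Hk1 chr10:62268855-62379920. Each printed window covers the flank and the first bases of an annotated transcript start, which for Ldha, Pfkfb3 and Hk1 lies inside the gene's span. The core stood in 14 of the 16 windows and in at least 1 window of all 10 genes, against 43.8% of 32851 windows and 46.7% of 27025 genes in the table. ACGTG alone was present in 8 of the 10 genes, against 21.8% of genes, and GCGTG in 6, against 35.2%. The outermost Ldha window held 7 matches on the 2 strands, and a palindrome such as CACGTG counts on both. The outermost Hk1 and Pkm windows held none, while their inner windows held 5 and 2. For comparison, TTCNNNGAA, the core recognised by STAT factors, was in no member window against 9.55% of genes. The kappaB consensus was in 1 window each of Hk1 and Pgk1, against 6.55% of genes. These matches describe letters in these windows and are not sites.

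Depth ran from 540642 to 2489084 reads per library. Values are the authors' normalised reads, which the files hold on a separate scale for each table, and tests stayed within a table. Il10ra itself had 15.9 to 123.6 normalised reads in Il10ra mutants and 269 to 745 in floxed controls. Double mutants had 7.10 to 76.4 for Il10ra, and doubly floxed controls 238 to 533. Tnf ran from 0 to 31.1 in double mutants and 5.6 to 603 in doubly floxed controls. A tag outside a deleted part would check nothing, and the labels do not give the deleted part. All 8 microglial markers were present. Their summed level was 8951 to 14658 in 48 h Il10ra mutants and 22565 to 27679 in 48 h floxed controls. It was 18284 to 20076 in 6 h floxed controls and 36359 to 38194 in untreated ones. In these bulk libraries, fewer cells of a type and less RNA per cell cannot be told apart.

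**Figure D1:**
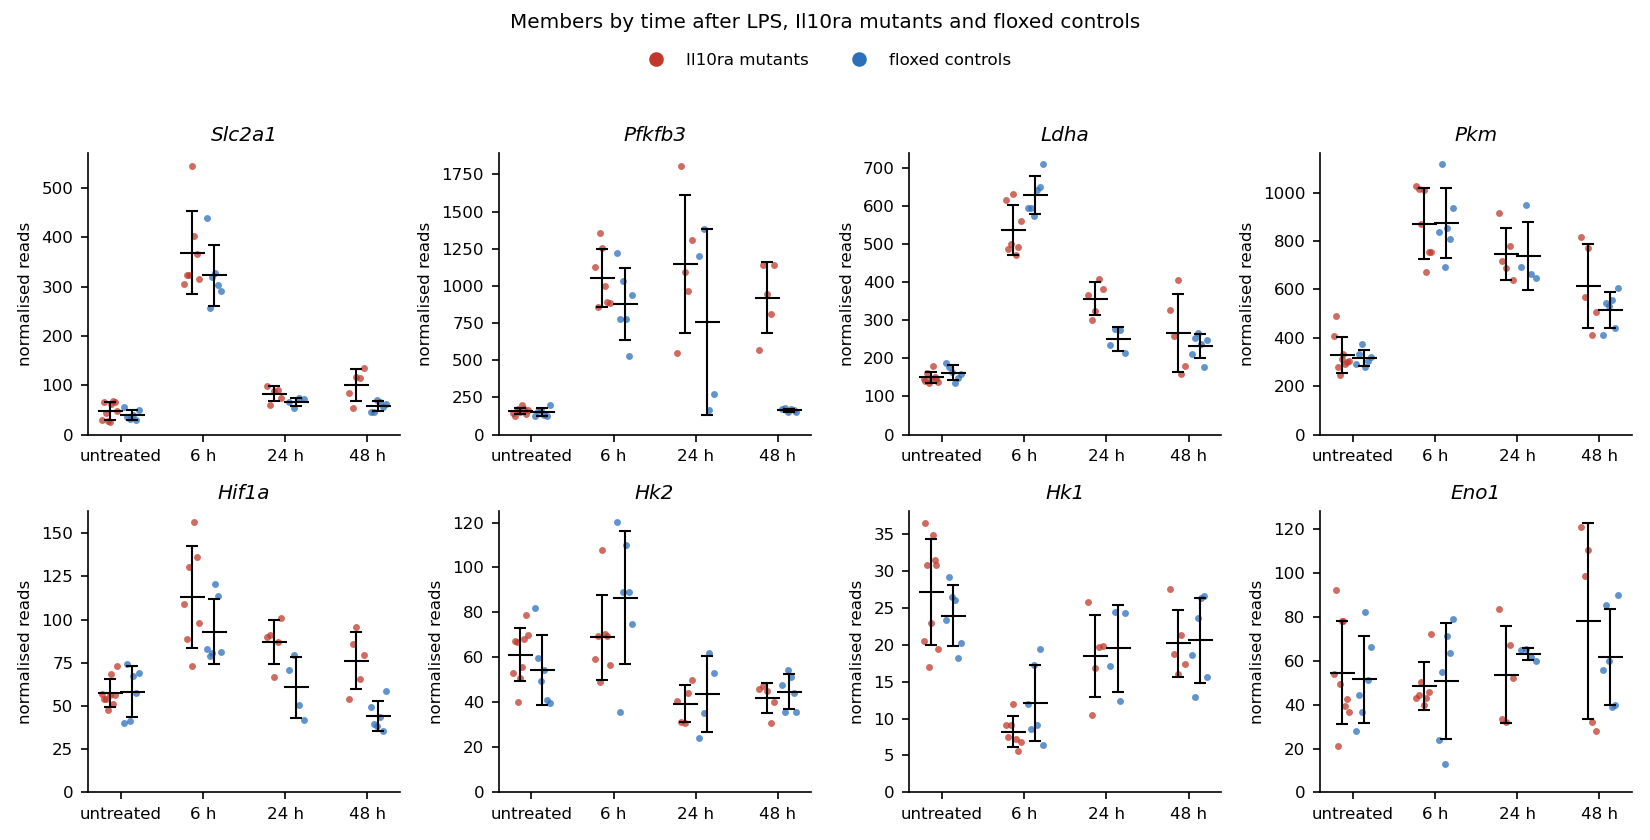
Normalised reads per library for 8 of the genes in the Il10ra mutant table (y axis) by time after LPS (x axis), with Il10ra mutants in red left of floxed controls in blue; points are libraries and bars the mean ± SD. Slc2a1, Pkm and Ldha are highest at 6 h, and Pfkfb3 of the 48 h mutants (570.4 to 1143) sits apart from the 48 h floxed controls (149 to 177).

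At 6 h after LPS, 6 of the 9 tested genes rose in floxed controls and 1 fell. The risers include Pfkp, which was at few reads. Slc2a1 and Pfkfb3 had the highest folds of the set. Among all genes, 20.0% of the 10932 tested genes were called higher and 20.3% lower, and the median log2 fold of the 9 was 1.45, against -0.05 over all tested genes. Pgk1 has no value in this table and entered no main test in any table, since it did not pass the filter on low values. The log2 folds are of value + 1, tested with limma, and adjusted p-values (Benjamini-Hochberg) are over all tested genes; a gene is called at 0.05.

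Slc2a1 encodes GLUT1, the facilitative glucose transporter of most cell types. Slc2a1 had 33.1 to 61.2 (median 41.1) normalised reads in untreated floxed controls, 281 to 490.4 (median 345) at 6 h, 71.4, 59.3, 79.7 and 78.5 at 24 h, 49.0 to 75.2 (median 64.5) at 48 h and 59.5, 65.1, 43.6 and 33.7 at day 7. All 6 libraries at 6 h lay above all untreated libraries, while each later time overlapped the untreated range. The rise at 6 h was log2 3.01 ± 0.23, adjusted p = 2.6e-10. At 24 h it was log2 0.72 ± 0.23, adjusted p = 0.0181, and at 48 h the value was log2 0.53 ± 0.20, adjusted p = 0.0766. Between 24 h and 6 h it fell by 2.28 on the log2 scale (adjusted p = 2.68e-08), with no overlap. The 24 h call was lost without floxed untreated replicate 2 or 3 (log2 0.55 to 0.65, adjusted p = 0.0724 to 0.116) and with only the groups compared (log2 0.68, adjusted p = 0.0797). Slc2a1 was called higher at 48 h with no experiment term (log2 0.51, adjusted p = 0.0259).

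Hk1 and Hk2 encode hexokinases, which phosphorylate glucose and so hold it in the cell. Hk1 had 19.9 to 31.7 (median 26.8) normalised reads in untreated floxed controls, 6.99 to 21.4 (median 11.7) at 6 h, 18.6, 26.6, 13.5 and 26.5 at 24 h, 14.1 to 28.8 (median 22.9) at 48 h and 28.2, 25.2, 19.8 and 32.2 at day 7. It was the only gene of the set to fall at 6 h (log2 -1.14 ± 0.35, adjusted p = 0.011), and the ranges overlapped. Hk2 had 43.1 to 89.1 (median 56.4) normalised reads in untreated floxed controls, 39.4 to 134.4 (median 98.8) at 6 h, 26.4, 38.7, 67.4 and 58.1 at 24 h, 38.9 to 59.0 (median 49.7) at 48 h and 85.4, 46.6, 75.9 and 84.3 at day 7. Hk2 did not pass the test at 6 h (log2 0.22 ± 0.32, adjusted p = 0.62), and without the experiment term it did (log2 0.63, adjusted p = 0.0365). With the term, the 6 h folds rest mainly on AS_2nd_exp, which alone held both untreated and 6 h floxed controls. Hk2 had 134.4, 39.4 and 99.2 there at 6 h, the 39.4 being 21 reads, and 89.1, 65.1 and 53.5 untreated. The 6 h libraries of Anat_LPSchallenged had 120.8, 98.3 and 82.5.

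Pfkp encodes the platelet type of phosphofructokinase, the committing step of glycolysis. Pfkp had 0 to 2.57 (median 1.36) normalised reads in untreated floxed controls, 1.26 to 9.38 (median 5.34) at 6 h, 3.57, 6.05, 1.12 and 1.02 at 24 h, 0.900 to 9.40 (median 3.61) at 48 h and 3.81, 2.96, 4.62 and 9.19 at day 7. At these few reads the rise at 6 h (log2 2.31 ± 0.59, adjusted p = 0.00276) came with overlapping ranges. The 6 h libraries of AS_2nd_exp had 7.84, 9.38 and 9.11, and those of Anat_LPSchallenged had 1.26, 2.85 and 2.80, near the untreated range. No untreated library reached the filter value of 5, so Pfkp entered this fit only through libraries after LPS. Pfkfb3 makes fructose 2,6-bisphosphate, the strongest activator of phosphofructokinase. Pfkfb3 had 137 to 218 (median 158.4) normalised reads in untreated floxed controls, 581 to 1366 (median 943) at 6 h, 1307, 1508, 182 and 298 at 24 h, 162 to 192 (median 179.6) at 48 h and 165, 147, 126.1 and 147 at day 7. The 6 h libraries lay above every untreated one, and the 24 h libraries split, with 2 near the 6 h level and 2 nearer the untreated level. The rise was log2 2.90 ± 0.43, adjusted p = 8.34e-06 at 6 h and log2 2.01 ± 0.43, adjusted p = 0.00115 at 24 h. At 48 h the value was log2 0.11 ± 0.39, adjusted p = 0.887. The 24 h libraries with 1307, 1508 and 182 normalised reads shared an experiment and the one with 298 came from another, so the split lay within an experiment.

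Pgk1 and Pkm catalyse the steps of glycolysis that form ATP, and Eno1 the dehydration between them. Pgk1 encodes phosphoglycerate kinase 1 and was listed at 0 to 9 normalised reads in the mutant tables; the genome holds near-identical Pgk1 copies, and the sources used here do not give how such reads were assigned. Eno1 had 30.6 to 89.2 (median 52.1) normalised reads in untreated floxed controls, 14.2 to 86.7 (median 64.9) at 6 h, 70.7, 71.4, 67.4 and 65.3 at 24 h, 42.1 to 97.8 (median 62.7) at 48 h and 38.9, 52.5, 52.8 and 52.1 at day 7. For Eno1, enolase 1, the untreated range overlapped that of every later time, with log2 -0.18 ± 0.38, adjusted p = 0.736 at 6 h. Pkm had 305 to 406 (median 340.1) normalised reads in untreated floxed controls, 772 to 1229 (median 937) at 6 h, 753, 1037, 725 and 706 at 24 h, 445 to 658 (median 585) at 48 h and 464, 460.1, 396 and 368 at day 7. Pkm, pyruvate kinase, was above every untreated library at 6, 24 and 48 h. Its rises were log2 1.45 ± 0.18, adjusted p = 5.18e-07 at 6 h, log2 1.16 ± 0.18, adjusted p = 2.81e-05 at 24 h and log2 0.75 ± 0.16, adjusted p = 0.00162 at 48 h.

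Ldha encodes the A subunit of lactate dehydrogenase, which favours lactate formation. Ldha had 147 to 205 (median 175) normalised reads in untreated floxed controls, 639 to 780.1 (median 685) at 6 h, 255, 303, 299.7 and 233 at 24 h, 193 to 288 (median 263) at 48 h and 233, 213, 195 and 207 at day 7. All 6 h and 24 h libraries lay above the untreated range, and the 48 h range overlapped it. The rises were log2 1.84 ± 0.15, adjusted p = 1.12e-09 at 6 h, log2 0.50 ± 0.15, adjusted p = 0.0167 at 24 h and log2 0.63 ± 0.14, adjusted p = 0.00188 at 48 h. The 24 h call was lost without floxed untreated replicate 3 or floxed 24 h replicate 2 (log2 0.44 to 0.44, adjusted p = 0.0645 to 0.0683). Like Pgk1 and Eno1, Ldha has pseudogene copies, so its values are uncertain as far as the counting split such reads. Hif1a encodes HIF-1 alpha. Hif1a had 43.7 to 80.9 (median 67.7) normalised reads in untreated floxed controls, 86.3 to 132.1 (median 91.5) at 6 h, 77.2, 87.2, 55.0 and 45.9 at 24 h, 38.7 to 63.9 (median 45.0) at 48 h and 65.6, 65.1, 62.1 and 58.2 at day 7. The 6 h libraries lay above the untreated ones (log2 0.88 ± 0.25, adjusted p = 0.0063), and at 48 h the value was log2 -0.56 ± 0.23, adjusted p = 0.0912.

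The 24 h rise covered 4 of the 9 tested genes (Slc2a1, Pfkfb3, Pkm and Ldha) with none lower, where 13.7% of the 10932 tested genes were called higher and 14.1% lower. Without floxed 24 h replicate 3, Hk2 was also called lower (log2 -0.93, adjusted p = 0.0292) and Pfkp higher (log2 1.66, adjusted p = 0.0385). Eno1 was called higher at 24 h with only the groups compared (log2 0.83, adjusted p = 0.0216). At 48 h Pkm and Ldha were higher and none lower, where 10.6% of the 10932 tested genes were called higher and 6.99% lower. Between 24 h and 6 h, Slc2a1, Ldha (log2 -1.35 ± 0.13, adjusted p = 2.03e-07), Hk2 (log2 -0.89 ± 0.27, adjusted p = 0.0195) and Hif1a (log2 -0.64 ± 0.21, adjusted p = 0.0291) were lower and none higher, and 12.1% of the 10932 tested genes were called higher and 12.8% lower. The Hif1a call was lost without floxed 24 h replicate 3 or 4 (log2 -0.58 to -0.32, adjusted p = 0.0643 to 0.363), and also after quantile normalization (log2 -0.58, adjusted p = 0.0576) and with only the groups compared (log2 -0.64, adjusted p = 0.0677). The Hk2 call was lost without floxed 6 h replicate 1 or 3 or floxed 24 h replicate 1 (log2 -0.79 to -0.66, adjusted p = 0.0609 to 0.0886), and with only the groups compared (log2 -0.89, adjusted p = 0.082). Pfkfb3 was called lower at 24 h without floxed 24 h replicate 1 or 2 (log2 -1.27 to -1.21, adjusted p = 0.0103 to 0.0224), and higher calls came for Hk1 without floxed 6 h replicate 5 or floxed 24 h replicate 3 (log2 0.79 to 0.86, adjusted p = 0.0438 to 0.0455) and for Eno1 without floxed 6 h replicate 2 or floxed 24 h replicate 4 (log2 1.00 to 1.26, adjusted p = 0.016 to 0.0256). Eno1 was also called with the replicate block (log2 0.82, adjusted p = 0.0491). No experiment held floxed controls of both 24 h and 48 h, so their comparison runs through the untreated libraries that share an experiment with each. Between 48 h and 24 h limma called none, with 2 genes at unadjusted p under 0.05 (2308 of the 10932 over all tested genes), and edgeR and DESeq2 called 1 each. That gene was Pfkfb3 (limma log2 -1.90 ± 0.58, adjusted p = 0.0658; edgeR log2 -2.37, adjusted p = 0.0184; DESeq2 log2 -2.37, adjusted p = 0.00272), which limma also called without floxed 24 h replicate 3 or 4 (log2 -2.60 to -2.03, adjusted p = 9.82e-05 to 0.0406). Over all genes, 2.21% of the 10932 tested genes were called higher and 1.23% lower. At day 7 limma called none against untreated, with 2 at unadjusted p under 0.05 (1479 over all tested genes), and edgeR and DESeq2 called 0, while 2.46% of the 11103 tested genes were called higher and 0.567% lower. The day 7 libraries form an experiment of their own, so day 7 and experiment cannot be told apart. Pfkp was log2 1.56 ± 0.52, adjusted p = 0.118 at day 7, where its lowest library exceeded the highest untreated one, and it was called with the experiment term summing to 0 (log2 2.06, adjusted p = 0.0165). Neutrophil markers summed to 2588 to 19329 at day 7 and 6.01 to 813 untreated, all 8 of them present, and their part in the result was not tested.

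Within the experiment that holds 3 libraries each of 6 h and untreated floxed controls, the 6 h differences were 3.05 for Slc2a1, 2.77 for Pfkfb3, 1.77 for Ldha, 1.41 for Pkm, 2.41 for Pfkp, 0.72 for Hif1a and -1.02 for Hk1, all as differences of mean log2 values. The neutrophil markers summed to 137 to 1251 at 6 h and 6.01 to 813 untreated. Erythroid markers summed to 4.05 to 1700.2 at 6 h and 0 to 257 untreated, and monocyte markers to 28.0 to 114.4 at 6 h and 24.3 to 37.6 untreated. Lymphocyte markers summed to 11.1 to 21.3 at 6 h and 44.8 to 61.8 untreated, with 3 of the 6 present and Cd3e at 0 in both groups. Border macrophage markers summed to 5.59 to 12.6 at 6 h, with Cd163 and Lyve1 at 0, and 12.5 to 60.9 untreated. Endothelial markers (4 of 7 present) summed to 19.6 to 50.6 at 6 h and 18.02 to 25.0 untreated, and oligodendrocyte markers (4 of 5) to 83.9 to 176 at 6 h and 167 to 194 untreated. The part of the lists other than the neutrophil one in the 6 h values was not tested. Without the 6 h library over 1000, chosen after its values were seen, Slc2a1 was log2 3.13, adjusted p = 9.91e-10 and Ldha was log2 1.87, adjusted p = 7.77e-09.

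The wider pathway at 6 h is described by lists that leave out the 10 genes. Among other glycolytic enzymes, 6 rose and 3 fell of 13 tested (median log2 0.58). The lowest p-values were those of the muscle-type enolase Eno3 (log2 -1.74 ± 0.19, adjusted p = 8.94e-08), the heart-type lactate dehydrogenase subunit Ldhb (log2 -1.50 ± 0.23, adjusted p = 1.26e-05) and the ADP-dependent glucokinase Adpgk (log2 1.30 ± 0.28, adjusted p = 0.000702). Among sugar and lactate transporters, 3 rose and 3 fell of 9 tested (median log2 -0.76). Slc2a5 (log2 -2.90 ± 0.45, adjusted p = 1.49e-05), a fructose transporter, and Slc2a8 (log2 -2.14 ± 0.20, adjusted p = 7.37e-09) fell, and Slc2a6 (log2 2.88 ± 0.48, adjusted p = 3.63e-05) rose. Of the relatives of Pfkfb3, 1 rose and 0 fell of 3 tested (median log2 -0.45), the riser being Tigar (log2 1.34 ± 0.45, adjusted p = 0.0208), a fructose-2,6-bisphosphatase. Among partners and regulators of HIF, 2 rose and 1 fell of 6 tested (median log2 0.49). Hif3a (log2 4.02 ± 0.87, adjusted p = 0.000647), a HIF alpha relative, and Egln2 (log2 1.00 ± 0.37, adjusted p = 0.0321), a prolyl hydroxylase, rose, and Vhl (log2 -0.79 ± 0.20, adjusted p = 0.00227), the substrate receptor of the ligase that marks hydroxylated HIF alpha, fell.

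Of genes known as HIF targets, 10 rose and 4 fell of 17 tested (median log2 1.01). Tfrc (log2 2.39 ± 0.47, adjusted p = 0.000214), the transferrin receptor, and Hmox1 (log2 1.54 ± 0.23, adjusted p = 1.01e-05), haem oxygenase 1, rose, while Pdk1 (log2 -1.41 ± 0.21, adjusted p = 9.04e-06), a kinase that holds pyruvate dehydrogenase off, fell. Several of these genes are also induced by inflammatory signals. In the entry of pyruvate into mitochondria, 1 rose and 3 fell of 11 tested (median log2 0.01): the pyruvate carrier subunits Mpc1 (log2 -1.04 ± 0.29, adjusted p = 0.00618) and Mpc2 (log2 -0.65 ± 0.17, adjusted p = 0.00401) fell and the dehydrogenase subunit Pdha1 (log2 0.72 ± 0.24, adjusted p = 0.0172) rose. In the citric acid cycle, 5 rose and 4 fell of 19 tested (median log2 0.25), with Idh3a (log2 1.53 ± 0.22, adjusted p = 3.74e-06) higher and Idh2 (log2 -1.87 ± 0.22, adjusted p = 2.01e-07) and Mdh1 (log2 -0.88 ± 0.14, adjusted p = 2.1e-05) lower. In the pentose phosphate pathway, 2 rose and 0 fell of 7 tested (median log2 -0.10), both of which were Pgd (log2 0.97 ± 0.16, adjusted p = 3.64e-05) and Tkt (log2 1.03 ± 0.22, adjusted p = 0.00046). In glycogen metabolism, 2 rose and 2 fell of 9 tested (median log2 -0.46): Pgm1 (log2 1.55 ± 0.33, adjusted p = 0.000507) rose, and the phosphorylases Pygl (log2 -1.84 ± 0.32, adjusted p = 6.69e-05) and Pygb (log2 -1.05 ± 0.35, adjusted p = 0.0172) fell. These shares stand beside the background of all genes given above and no list was tested as a whole.

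**Figure D2:**
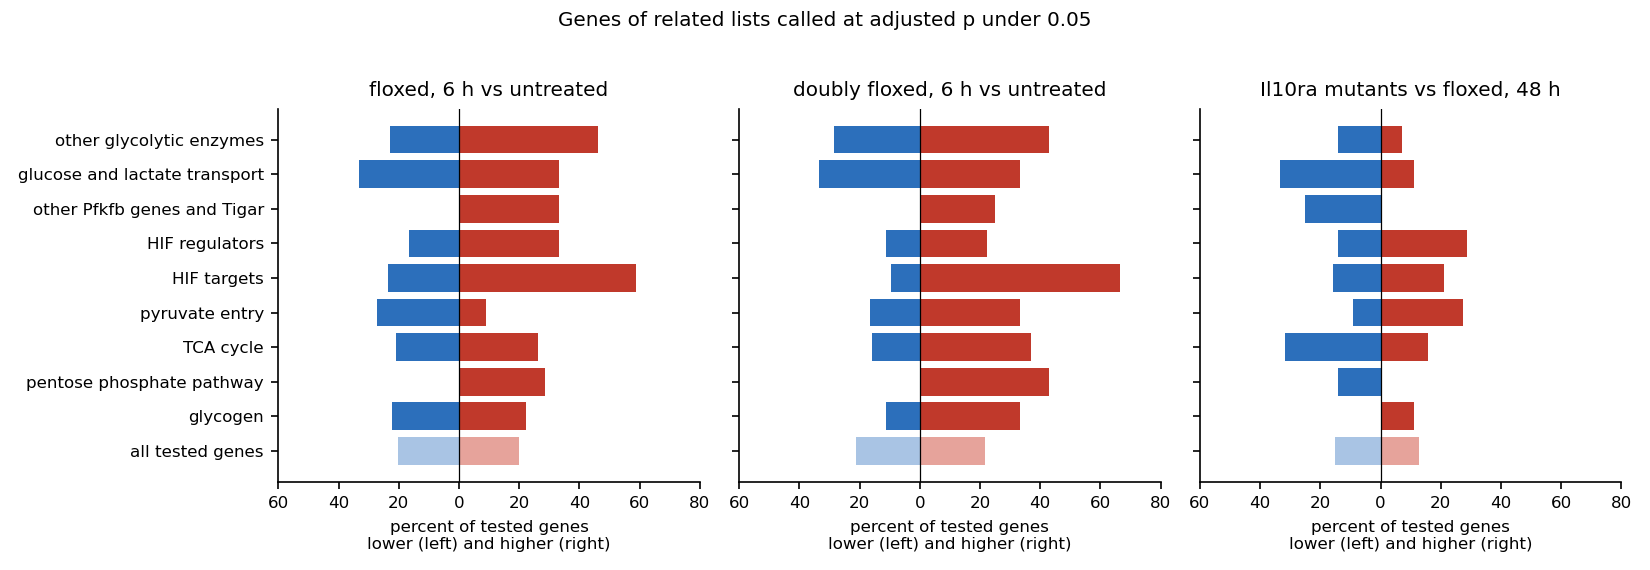
Percent of the tested genes of each list called lower (blue, to the left) and higher (red, to the right) at adjusted p under 0.05 in 3 comparisons, with the percent over all tested genes in paler bars at the foot. At 6 h in floxed controls 10 of 17 tested HIF targets were higher and 4 lower.

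The 6 h response was also measured in doubly floxed controls, in libraries that the floxed time course did not use. Of the 9 tested genes 7 were higher and 1 lower, and 21.6% of the 11800 tested genes were called higher and 21.1% lower. Slc2a1 had 402, 422, 386, 364 and 291 normalised reads at 6 h and 40.6 to 54.2 (median 45.7) untreated (log2 2.96 ± 0.17, adjusted p = 2.14e-17). Pfkfb3 had 1398, 1237, 1038, 859 and 1137 at 6 h and 115 to 188 (median 142.2) untreated (log2 2.94 ± 0.18, adjusted p = 1.41e-16). Both genes, and Ldha, Pkm and Hif1a, were above the untreated range in every 6 h library. Ldha had 691, 624, 504, 683 and 538 at 6 h and 126.1 to 161 (median 138.5) untreated (log2 2.09 ± 0.13, adjusted p = 4.22e-16). Pkm had 955.2, 1054, 927, 855 and 840.4 at 6 h and 225 to 341 (median 294) untreated (log2 1.68 ± 0.13, adjusted p = 5.44e-14). Hif1a had 173, 130.4, 133, 111.2 and 100.1 at 6 h and 49.7 to 76.9 (median 69.8) untreated (log2 0.92 ± 0.23, adjusted p = 0.00113). Pfkp (log2 1.72 ± 0.41, adjusted p = 0.000678) and Hk2 (log2 0.66 ± 0.21, adjusted p = 0.00881) rose with overlapping ranges. Hk1 fell, with 9.91, 16.9, 12.6, 16.5 and 15.1 at 6 h and 18.6 to 37.7 (median 29.9) untreated (log2 -0.94 ± 0.22, adjusted p = 0.000681), and the groups did not overlap. Eno1 was log2 0.39 ± 0.27, adjusted p = 0.26.

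Neutrophil markers summed to 17.1 to 6752 in 6 h doubly floxed controls, the highest in replicate 3, and to 1.48 to 899 in untreated ones. Without the libraries over 1000, Slc2a1 was log2 2.97, adjusted p = 8.73e-16 and Ldha log2 2.16, adjusted p = 5.3e-15. At 48 h, Pkm (log2 0.87 ± 0.12, adjusted p = 4.45e-07) and Ldha (log2 0.73 ± 0.13, adjusted p = 2.39e-05) were higher than untreated without overlap and Hk1 (log2 -0.58 ± 0.21, adjusted p = 0.0447) was lower with overlap, and 13.8% of the 11800 tested genes were called higher and 9.83% lower, or 1625 and 1160 genes, against 1399 and 1547 after quantile normalization. The Hk1 call was lost without doubly floxed untreated replicate 1, 3, 4 or 5 or doubly floxed 48 h replicate 3, 6 or 7 (log2 -0.60 to -0.42, adjusted p = 0.0587 to 0.173), and also with no filter on low values (log2 -0.58, adjusted p = 0.051), by edgeR (log2 -0.52, adjusted p = 0.059), by DESeq2 (log2 -0.51, adjusted p = 0.0762), with the replicate block (log2 -0.49, adjusted p = 0.147) and without libraries of high neutrophil markers (log2 -0.62, adjusted p = 0.0513). Eno1 was called higher without doubly floxed untreated replicate 6 or doubly floxed 48 h replicate 6 (log2 0.77 to 0.82, adjusted p = 0.0263 to 0.0364), and also by edgeR (log2 0.69, adjusted p = 0.0492), with only the groups compared (log2 0.65, adjusted p = 0.0143) and without the library named a mistake (log2 0.67, adjusted p = 0.0473). The library named a mistake was an untreated double mutant, in neither group compared, so its removal reached this comparison only through the shared fit. Of HIF targets at 6 h in doubly floxed controls, 14 rose and 2 fell of 21 tested (median log2 1.05), and of other glycolytic enzymes 6 rose and 4 fell of 14 tested (median log2 0.44). Over all tested genes 21.6% were called higher and 21.1% lower at 6 h.

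Il10ra mutants were set against floxed controls at each time. Untreated, limma called none of the 9 tested genes, and 0% of the 11555 tested genes were called higher and 0.00865% lower. At 6 h it called none either, and 1.89% of the 11555 tested genes were called higher and 1.42% lower, with 164 lower of 382 called, against 153 lower of 277 called after quantile normalization. Slc2a1 had 306 to 545 (median 324) normalised reads in mutants and 257 to 439 (median 312) in floxed controls at 6 h (log2 0.19 ± 0.20, adjusted p = 0.623). Pfkfb3 had 855 to 1353 (median 996) in mutants and 528 to 1223 (median 859) in floxed controls (log2 0.27 ± 0.27, adjusted p = 0.624). Both pairs of ranges overlapped. Ldha was called lower in mutants at 6 h after quantile normalization (log2 -0.38, adjusted p = 0.0464). Unadjusted limma p was under 0.05 for 0 genes of the set untreated and 1 at 6 h, and edgeR and DESeq2 called 0 at both times. Over all 11555 tested genes it was under 0.05 for 249 untreated and 2277 at 6 h.

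At 24 h, Ldha and Pfkfb3 were higher in Il10ra mutants and none lower, and 1.11% of the 11555 tested genes were called higher and 2.40% lower. Ldha had 366, 301, 326, 408 and 381 normalised reads in mutants and 235, 277, 275 and 213 in floxed controls (log2 0.52 ± 0.13, adjusted p = 0.022), without overlap. Pfkfb3 had 547, 1809, 1090.3, 969 and 1311 in mutants and 1202, 1380.2, 167 and 273 in floxed controls (log2 1.11 ± 0.33, adjusted p = 0.0494), and the groups overlapped, with 2 floxed libraries among the mutants and 2 below them. Within the experiment with 2 mutants and 3 floxed controls the Pfkfb3 difference of mean log2 values was 0.61, and within that with 3 mutants and 1 floxed control it was 2.03. For Ldha these were 0.34 and 0.79. With only the 24 h groups in the fit limma called neither gene (0 of the set, and 1 gene over all), with Ldha at log2 0.52, adjusted p = 0.504 and Pfkfb3 at log2 1.15, adjusted p = 0.517. The Pfkfb3 call was lost without floxed 24 h replicate 3 or 4 or mutant 24 h replicate 2, 3, 4 or 5 (log2 0.56 to 1.12, adjusted p = 0.0936 to 0.44), and the Ldha call without floxed 24 h replicate 3 or 4 or mutant 24 h replicate 4 or 5 (log2 0.43 to 0.56, adjusted p = 0.0586 to 0.264). The Pfkfb3 call was also lost with no filter on low values (log2 1.11, adjusted p = 0.0515), by edgeR (log2 0.76, adjusted p = 0.163), by DESeq2 (log2 0.76, adjusted p = 0.124), after quantile normalization (log2 1.07, adjusted p = 0.0533), with the replicate block (log2 1.13, adjusted p = 0.0821), with no experiment term (log2 1.02, adjusted p = 0.0717) and without libraries of high neutrophil markers (log2 1.13, adjusted p = 0.0563), and the Ldha call also with no experiment term (log2 0.51, adjusted p = 0.0704). The libraries of high neutrophil markers were of 6 h and 48 h, so leaving them out reached the 24 h comparison only through the shared fit. Hif1a was called higher without floxed 24 h replicate 2 (log2 0.65, adjusted p = 0.044).

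At 48 h, Pfkfb3, Hif1a, Ldha and Pkm were higher in Il10ra mutants and none of the 9 tested genes was lower, and 12.7% of the 11555 tested genes were called higher and 15.2% lower. The median log2 fold of the 9 was 0.49, against 0.01 over all tested genes. Pfkfb3 had 570.4, 1143, 945, 813 and 1138 normalised reads in mutants and 149 to 177 (median 166) in floxed controls. Every mutant library was above every floxed one, by log2 2.38 ± 0.35, adjusted p = 7.84e-07. Hif1a had 53.98, 85.9, 95.5, 65.7 and 79.6 in mutants and 35.8 to 58.7 (median 41.6) in floxed controls (log2 0.79 ± 0.22, adjusted p = 0.00436). Ldha had 327, 259.9, 405, 159.7 and 181 in mutants and 178 to 266 (median 243) in floxed controls (log2 0.50 ± 0.14, adjusted p = 0.00472). Pkm had 818, 567, 772, 413 and 507 in mutants and 411 to 604 (median 539) in floxed controls (log2 0.48 ± 0.16, adjusted p = 0.0185). These 3 genes overlapped between the groups. The Hif1a call was lost without mutant 48 h replicate 3 (log2 0.63, adjusted p = 0.0628), the Ldha call without mutant 48 h replicate 3 (log2 0.34, adjusted p = 0.111) and the Pkm call without floxed 48 h replicate 1 or mutant 48 h replicate 1 or 3 (log2 0.38 to 0.42, adjusted p = 0.0509 to 0.122). Without the experiment term Ldha was log2 0.12, adjusted p = 0.555 and Pkm log2 0.22, adjusted p = 0.29.

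Slc2a1 had 83.5, 52.8, 117, 114.5 and 135 in mutants and 45.3 to 69.3 (median 59.5) in floxed controls (log2 0.49 ± 0.25, adjusted p = 0.133). Eno1 had 121, 98.7, 110.7, 31.9 and 28.0 in mutants and 39.1 to 89.9 (median 57.8) in floxed controls (log2 0.90 ± 0.35, adjusted p = 0.0519). Slc2a1 was called higher without mutant 48 h replicate 2 (log2 0.79, adjusted p = 0.0385) and with no experiment term (log2 0.74, adjusted p = 0.00775). Eno1 was called higher with pseudocount 5 (log2 0.85, adjusted p = 0.0397), by edgeR (log2 0.84, adjusted p = 0.0241), by DESeq2 (log2 0.84, adjusted p = 0.0395), after quantile normalization (log2 0.91, adjusted p = 0.0415) and with only the groups compared (log2 0.90, adjusted p = 0.00818), and also without floxed 48 h replicate 2 or 6 (log2 1.00 to 1.02, adjusted p = 0.0316 to 0.0341). The first 3 mutants named in each of these lists shared an experiment with the floxed controls, and the fold rests on them, since the other 2 came from the experiment of the double mutants. Ldha and Pkm were higher in the first 3 than in the other 2, as was Eno1, while Pfkfb3 was high in both. Hk1 (log2 0.02 ± 0.29, adjusted p = 0.972), Hk2 (log2 0.06 ± 0.25, adjusted p = 0.896) and Pfkp (log2 0.35 ± 0.51, adjusted p = 0.659) did not pass the test.

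The neutrophil markers summed to 27.8 to 1303 in 48 h mutants and 26.6 to 236 in 48 h floxed controls, with 7 of 8 markers present, Ly6g absent from the table and Camp and Ltf at 0 in the floxed controls. This fit held 4 libraries over 1000, namely mutant 48 h replicate 3, mutant 6 h replicates 1 and 2 and floxed 6 h replicate 2. Without these 4 libraries, chosen after their values were seen, Pfkfb3 was the only one of the 4 called genes still called (log2 2.30, adjusted p = 7.33e-05). Hif1a was then log2 0.63, adjusted p = 0.07, Ldha log2 0.34, adjusted p = 0.115 and Pkm log2 0.42, adjusted p = 0.1. Of these 4 libraries only mutant 48 h replicate 3 was in the groups compared. Leaving it out alone gave the same folds for Hif1a, Ldha and Pkm, so this is not a separate check. Monocyte markers summed to 12.8 to 86.6 in mutants and 21.3 to 36.6 in floxed controls, and border macrophage markers to 6.21 to 24.4 in mutants and 56.8 to 100.3 in floxed controls. The sums, in mutants and in floxed controls, were 0 to 167 and 0 to 186 for erythroid, 22.7 to 50.2 and 48.0 to 55.8 for lymphocyte, and 7.10 to 16.7 and 7.88 to 33.0 for endothelial markers. They were 95.0 to 196 and 176 to 295 for astrocyte, 105 to 137 and 117 to 160.5 for oligodendrocyte, and 8.82 to 20.4 and 4.04 to 6.86 for neuron markers. The part of other cells in the 48 h values was not tested.

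The 48 h response, from untreated, was larger in Il10ra mutants than in floxed controls for Pfkfb3 (log2 2.21 ± 0.44, adjusted p = 0.000312), Ldha (log2 0.61 ± 0.17, adjusted p = 0.00996) and Hif1a (log2 0.79 ± 0.27, adjusted p = 0.0381) by the interaction contrast, and smaller for none. In that contrast 6.74% of the 11555 tested genes were called higher and 9.64% lower. Without the 4 libraries over 1000 in neutrophil markers only Pfkfb3 passed (log2 2.12, adjusted p = 0.00349). Of these, only mutant 48 h replicate 3 was in the groups compared, and left out alone it gave Ldha at log2 0.45, adjusted p = 0.0991. The Ldha call was also lost with no experiment term (log2 0.23, adjusted p = 0.436). The Hif1a call was lost with the replicate block (log2 0.83, adjusted p = 0.0577) and without libraries of high neutrophil markers (log2 0.62, adjusted p = 0.187), and also without floxed untreated replicate 2, 4 or 6, floxed 48 h replicate 2, 3 or 5, mutant untreated replicate 4 or 5 or mutant 48 h replicate 2 or 3 (log2 0.63 to 0.77, adjusted p = 0.0537 to 0.168).

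**Figure D3:**
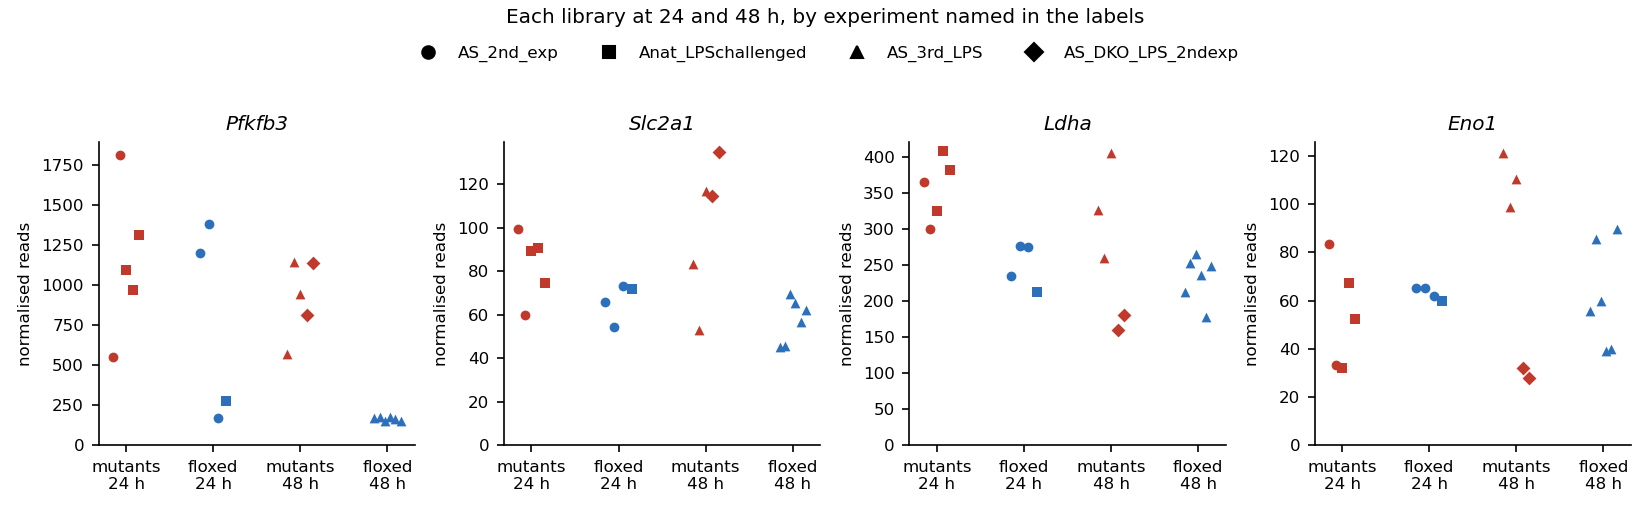
Normalised reads of Pfkfb3, Slc2a1, Ldha and Eno1 at 24 h and 48 h, with Il10ra mutants in red left of floxed controls in blue; each point is a library and its shape gives the experiment. Pfkfb3 of 48 h mutants is high in both experiments, whereas Ldha and Eno1 differ between them.

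In the wider pathway at 48 h in Il10ra mutants, of other glycolytic enzymes 1 rose and 2 fell of 14 tested (median log2 -0.12): Gpi1 (log2 0.53 ± 0.18, adjusted p = 0.0202), glucose-6-phosphate isomerase, rose, and Hk3 (log2 -1.95 ± 0.30, adjusted p = 2.99e-06), a hexokinase, and Ldhb (log2 -0.73 ± 0.20, adjusted p = 0.00392) fell. Over all 11555 tested genes, 12.7% were called higher and 15.2% lower in this comparison, and no list was tested as a whole. Of transporters, 1 rose and 3 fell of 9 tested (median log2 -0.41). The lowest p-values were those of Slc2a5 (log2 -3.53 ± 0.38, adjusted p = 1.05e-09), Slc2a8 (log2 -1.08 ± 0.19, adjusted p = 3.07e-05) and Slc16a7 (log2 -1.24 ± 0.46, adjusted p = 0.0362), a monocarboxylate transporter, all lower. Of the Pfkfb3 relatives, 0 rose and 1 fell of 4 tested (median log2 -0.37), namely Pfkfb4 (log2 -0.97 ± 0.23, adjusted p = 0.000902). Of HIF regulators, 2 rose and 1 fell of 7 tested (median log2 -0.03), with Egln2 (log2 2.17 ± 0.35, adjusted p = 5.08e-06) and Hif3a (log2 2.97 ± 0.63, adjusted p = 0.000321) higher and Egln3 (log2 -1.85 ± 0.51, adjusted p = 0.00515), a prolyl hydroxylase, lower. Of HIF targets, 4 rose and 3 fell of 19 tested (median log2 0.36), with Plin2 (log2 1.59 ± 0.37, adjusted p = 0.000977), a lipid droplet protein, higher and Pdk1 (log2 -1.001 ± 0.23, adjusted p = 0.000644) and the collagen prolyl hydroxylase P4ha1 (log2 -1.22 ± 0.20, adjusted p = 7.28e-06) lower.

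In pyruvate entry 3 rose and 1 fell of 11 tested (median log2 0.42), with Dld (log2 0.91 ± 0.18, adjusted p = 0.000107) and Pdhb (log2 0.71 ± 0.15, adjusted p = 0.000272) higher and Mpc2 (log2 -1.02 ± 0.15, adjusted p = 5.34e-07) lower. In the citric acid cycle 3 rose and 6 fell of 19 tested (median log2 -0.18), with Idh3a (log2 0.96 ± 0.20, adjusted p = 0.000252) higher and Idh2 (log2 -1.01 ± 0.19, adjusted p = 5.98e-05) and Idh3g (log2 -0.87 ± 0.21, adjusted p = 0.00157) lower. In the pentose phosphate pathway 0 rose and 1 fell of 7 tested (median log2 0.01), namely Taldo1 (log2 -0.53 ± 0.17, adjusted p = 0.0176). In glycogen metabolism 1 rose and 0 fell of 9 tested (median log2 -0.01), namely the branching enzyme Gbe1 (log2 1.62 ± 0.34, adjusted p = 0.000222). These counts stand beside the 12.7% called higher and 15.2% lower over all tested genes.

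Double mutants carry floxed alleles of Tnf, which encodes the inflammatory cytokine TNF, beside those of Il10ra. Against doubly floxed controls, limma called none of the 9 tested genes untreated, at 6 h or at 48 h. Over all genes, untreated 0% of the 11800 tested genes were called higher and 0.0254% lower, at 6 h 0.0254% of the 11800 tested genes were called higher and 0.0424% lower, and at 48 h 0% of the 11800 tested genes were called higher and 0.0169% lower. At 6 h Hk1 had 19.1 to 32.6 (median 22.3) normalised reads in double mutants and 9.91, 16.9, 12.6, 16.5 and 15.1 in doubly floxed controls (log2 0.75 ± 0.22, adjusted p = 0.162), without overlap. At 48 h Pfkfb3 had 123, 157.6, 127 and 121 in double mutants and 108.1 to 216 (median 139) in doubly floxed controls (log2 -0.12 ± 0.19, adjusted p = 1), and the ranges overlapped. Unadjusted p was under 0.05 for 3 of the 9 genes untreated, 2 at 6 h and 2 at 48 h, and edgeR and DESeq2 called 0 at each time. Over all 11800 tested genes, unadjusted p was under 0.05 for 1077 untreated, 1374 at 6 h and 393 at 48 h.

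**Figure D4:**
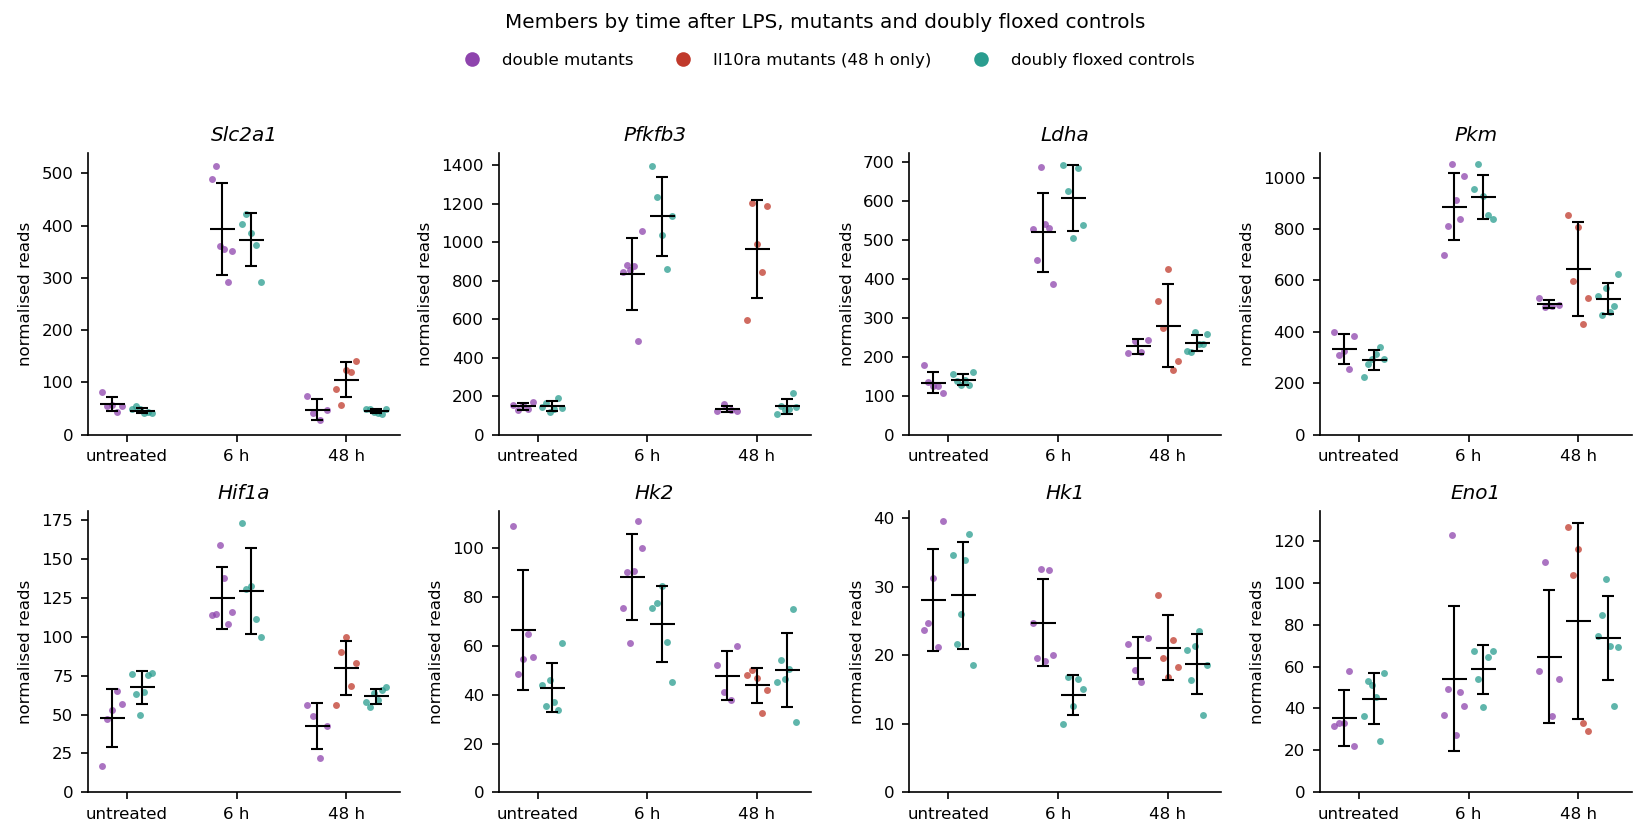
Normalised reads per library for 8 of the genes in the double mutant table, by time after LPS, with double mutants, then Il10ra mutants (48 h only), then doubly floxed controls; points are libraries and bars the mean ± SD. At 48 h Pfkfb3 of Il10ra mutants (596 to 1201) lies above double mutants (121 to 157.6) and doubly floxed controls (108.1 to 216).

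At 48 h the double mutant table also holds the 5 Il10ra mutants, of which 2 shared an experiment with double mutants and doubly floxed controls, so the folds rest on those 2. Pfkfb3 had 123, 157.6, 127 and 121 in double mutants and 596, 1201, 989, 848 and 1189 in Il10ra mutants (log2 -2.93 ± 0.26, adjusted p = 3.87e-11), without overlap. Slc2a1 had 74.7, 40.4, 27.8 and 46.3 in double mutants and 87.3, 55.6, 123, 119 and 141 in Il10ra mutants (log2 -1.37 ± 0.24, adjusted p = 3.59e-05), with overlap. Hif1a had 56.1, 49.0, 21.9 and 42.9 in double mutants and 56.4, 90.4, 99.95, 68.5 and 83.2 in Il10ra mutants (log2 -0.91 ± 0.33, adjusted p = 0.038); the highest double mutant was just under the lowest Il10ra mutant. Pfkp, at few reads, had 0.884, 1.32, 0 and 4.51 in double mutants and 4.26, 4.49, 4.20, 4.63 and 7.13 in Il10ra mutants (log2 -2.09 ± 0.60, adjusted p = 0.00714). These 4 of 9 were lower in double mutants and none was higher, and 14.9% of the 11800 tested genes were called higher and 13.7% lower. The Hif1a call was lost without double mutant 48 h replicate 3 or mutant 48 h replicate 4 or 5 (log2 -1.04 to -0.65, adjusted p = 0.0856 to 0.254), and also with the replicate block (log2 -0.53, adjusted p = 0.462), with only the groups compared (log2 -0.52, adjusted p = 0.269) and without libraries of high neutrophil markers (log2 -0.90, adjusted p = 0.0511). The Pfkp call was lost without mutant 48 h replicate 5 (log2 -1.82, adjusted p = 0.111) and with the replicate block (log2 -2.18, adjusted p = 0.0565). Ldha (log2 0.38 ± 0.19, adjusted p = 0.133), Pkm (log2 0.07 ± 0.18, adjusted p = 0.813) and Eno1 (log2 1.02 ± 0.40, adjusted p = 0.0506) did not pass the test. Eno1 was called higher in double mutants with pseudocount 5 (log2 0.94, adjusted p = 0.0481), by edgeR (log2 1.20, adjusted p = 0.0213), by DESeq2 (log2 1.15, adjusted p = 0.0252), after quantile normalization (log2 1.05, adjusted p = 0.0446), with only the groups compared (log2 1.33, adjusted p = 0.00705) and without the library named a mistake (log2 1.05, adjusted p = 0.034), and also without double mutant 48 h replicate 3 (log2 1.20, adjusted p = 0.0264). The library named a mistake, an untreated double mutant, was in neither group compared.

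Against doubly floxed controls at 48 h, the Il10ra mutants were higher in Pfkfb3 (log2 2.81 ± 0.24, adjusted p = 1.47e-11) and Slc2a1 (log2 1.40 ± 0.23, adjusted p = 5.74e-06) and lower in Eno1 (log2 -1.23 ± 0.37, adjusted p = 0.00885), and 16.6% of the 11800 tested genes were called higher and 17.3% lower. Slc2a1 had 87.3, 55.6, 123, 119 and 141 in Il10ra mutants and 39.5 to 49.4 (median 45.7) in doubly floxed controls, without overlap. Eno1 had 127, 104, 115.9, 33.3 and 29.3 in Il10ra mutants and 41.4 to 101.7 (median 72.3) in doubly floxed controls; the first 3 of the Il10ra libraries were high and the 2 that carry the fold were low. The Eno1 call was lost without mutant 48 h replicate 5 (log2 -1.14, adjusted p = 0.106). Without the experiment term Eno1 was log2 -0.05, adjusted p = 0.92. Ldha had 342, 273, 424, 167 and 189 in Il10ra mutants and 212 to 263 (median 232) in doubly floxed controls (log2 -0.43 ± 0.18, adjusted p = 0.0613), and was called lower after quantile normalization (log2 -0.48, adjusted p = 0.0381) and without libraries of high neutrophil markers (log2 -0.47, adjusted p = 0.0371). The first 3 of the Il10ra libraries were above the doubly floxed range and the other two below it. Microglial markers summed to 20460.5 to 24196 in double mutants, 9411 to 15319 in Il10ra mutants and 22579.9 to 25853 in doubly floxed controls. Both 48 h comparisons use the same Il10ra mutants.

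**Figure D5:**
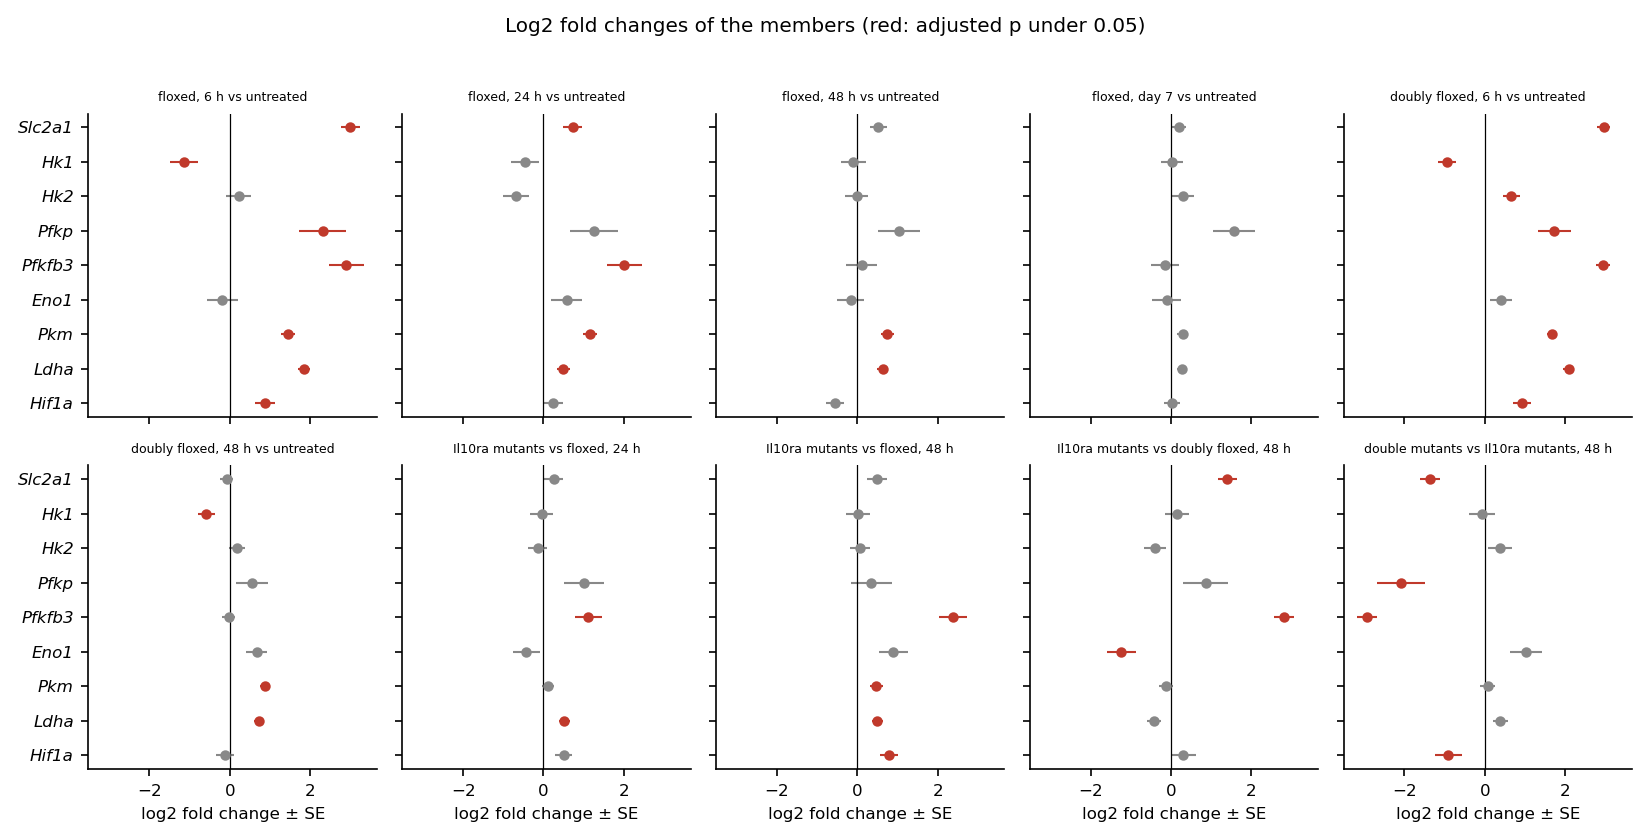
Log2 fold of each tested gene of the set in 10 comparisons (limma, value + 1), with bars for the standard error and red points for adjusted p under 0.05. Pfkfb3 is at 2.90 in 6 h floxed controls and 2.38 in 48 h Il10ra mutants, and at -2.93 in double mutants against Il10ra mutants.

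Untreated C57BL/6 microglia were set against untreated floxed controls in the fourth table, where Pfkp and Pgk1 have no value. Of the 8 tested genes only Eno1 was called, lower in C57BL/6 (log2 -1.06 ± 0.31, adjusted p = 0.0263), and 5.80% of the 10367 tested genes were called higher and 3.95% lower. Eno1 had 28.3, 20.6, 17.3 and 19.6 normalised reads in C57BL/6 and 25.9 to 76.6 (median 44.8) in floxed controls, with overlap. The call was lost without floxed untreated replicate 4 or 6 or C57BL/6 untreated replicate 2, 3 or 4 (log2 -1.05 to -0.91, adjusted p = 0.0619 to 0.087) and with the replicate block (log2 -0.88, adjusted p = 0.0616), and Ldha (log2 0.32 ± 0.12, adjusted p = 0.091) was called higher without floxed untreated replicate 1 (log2 0.37, adjusted p = 0.0452). The C57BL/6 libraries form an experiment of their own, so strain and experiment cannot be told apart.

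Over the 48 libraries of the Il10ra mutant table, the genes most like each member by Pearson r of log2 values, among 6714 genes with a mean of at least 20, were given as a description; the points share libraries and the LPS time course. Pfkfb3 was most like the metallothionein gene Mt2 (r = 0.96) and Filip1l (0.96), and Slc2a1 like the transglutaminase gene Tgm2 (0.95) and Heatr1 (0.92). Pkm was most like Ms4a6d (0.95) and Sema6b (0.95), and Ldha like Anp32b (0.93) and Heatr1 (0.93). Hif1a was most like Eif5 (0.86) and Mat2a (0.85), Hk1 like Klc4 (0.81) and N4bp2l1 (0.81), and Hk2 like Pcbp1 (0.74) and Trim28 (0.73). Pfkp was most like Nup93 (0.79) and Slc9a8 (0.78), Eno1 like Psma4 (0.68) and Psma1 (0.67), and Pgk1 like Diaph2 (0.57) and Prune2 (0.56).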

How the data were processed

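RNA of 89 libraries came as 4 expression tables. Their values are the authors' deposited signal, normalised reads, as stated per the file headers. The submitters' processing notes name the mm10 build, and the sources used here name no aligner or counter. Read values recovered from the step of each library were whole for 100% of entries (tolerance 0.01), and from them edgeR 4.0.16 called 4384 genes at 6 h in floxed controls. Libraries held 540642 to 2489084 reads; counting error limits genes at few reads, and tags without a stated strand setting may mix antisense partners.

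Groups came from the labels (88 libraries; 1 whose labels name different genotypes was left out). An untreated double mutant library with a column name calling it a mistake was kept. Rows with date-like names (17 or 18 per table) were left out. limma 3.58.1 (R 4.3.3) was fitted per table to log2(value + 1) of genes reaching 5 in at least a smallest group's number of libraries (2 or more), with an experiment term except for day 7 and C57BL/6. Experiment was inferred from the leading part of each library's label. Benjamini-Hochberg adjustment ran over all tested genes. Named were all 10 members, Il10ra and Tnf, the 3 called genes of lowest p per list, and the 2 genes of highest Pearson r per member, without Gm and Rik names. The members and lists were chosen with earlier results of these data known. Alternatives were pseudocount 5, no filter, edgeR, DESeq2 1.42.0, quantile normalization, a replicate block, no experiment term, only the groups compared and each library left out. Leaving out libraries with high neutrophil markers (summed value over 1000), or the library named a mistake, was chosen after seeing the data. Simulated reads were used only for the limma fit of floxed controls at 6 h against untreated, without an experiment term. The other fits were not tried in this way. ATAC-seq was not analysed here.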

Additional observations from a re-analysis of the deposited data

Results flagged for a closer look

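Of 153 groups of 4 to 10 libraries looked at over the members, 14 held a library far from the others by Dixon's test, where chance gives about 1 in 20 groups. Eno1 stood out in 3 groups, at 72.3 normalised reads in Il10ra mutant 6 h replicate 7 (others 40.0 to 50.4), 123 in double mutant 6 h replicate 3 (others 27.4 to 49.1) and 38.9 in floxed day 7 replicate 1 (others 52.1 to 52.8). Hk2 stood at 107.9 in Il10ra mutant 6 h replicate 4 (others 49.2 to 70.3), the library in which Slc2a1 also stood out at 545 (others 306 to 402). Hk2 was 109.2 in untreated double mutant replicate 1 (others 48.6 to 65.1). Pfkfb3 was 486 in double mutant 6 h replicate 5 (others 847 to 1061) and 216 in doubly floxed 48 h replicate 6 (others 108.1 to 147).

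Pkm was 1037 in floxed 24 h replicate 2 (others 706 to 753), and Hif1a 49.5 in C57BL/6 replicate 1 (others 40.6 to 41.5). The low-read genes were Pfkp, at 6.82 in Il10ra mutant 48 h replicate 5 (others 4.01 to 4.44) and 10.2 in Il10ra mutant 6 h replicate 1 (others 1.72 to 4.18), and Pgk1. Pgk1 was 8.54 in Il10ra mutant 48 h replicate 2 (others 0 to 2.04) and 4.22 in untreated Il10ra mutant replicate 6 (others 0 to 1.52).

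The 48 h response differed between Il10ra mutants and floxed controls, by limma's interaction contrast, in Pfkfb3 (log2 2.21, adjusted p = 0.000312), Hif1a (log2 0.79, adjusted p = 0.0381) and Ldha (log2 0.61, adjusted p = 0.00996).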

How the results depend on the processing

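Of 3557 member values compared with an alternative, 3425 kept their direction and side of the threshold or changed sign with neither value called (145 of them). A call was lost in 86 and gained in 46, and 0 changed sign with either value called. The 7 calls at 6 h in floxed controls were 8 with no experiment term and 6 with only the groups compared, and the 8 in doubly floxed controls were 7 with only the groups compared, where Pfkp did not pass the filter. The other alternatives left these counts as they were. At 24 h against 6 h the 4 calls were 2 with only the groups compared. At 48 h against 24 h the 0 calls were 1 by edgeR, 1 by DESeq2 and 2 with no experiment term. At day 7 the 0 calls were 1 with an experiment term summing to 0. Between Il10ra mutants and floxed controls at 6 h the 0 calls were 1 after quantile normalization. At 24 h the 2 calls were 1 with no filter, by edgeR, by DESeq2, after quantile normalization or without libraries with high neutrophil markers, and 0 with no experiment term or only the groups compared. Without those libraries the 4 calls at 48 h, and the 3 in the difference of responses, were 1 each. Of those libraries only mutant 48 h replicate 3 was in the groups compared at 48 h, and none was of 24 h. The cause was not tested.

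With the replicate block the 24 h mutant calls were 1, the 4 of double mutants against Il10ra mutants were 2 and the 1 of C57BL/6 was 0. Same-numbered libraries shared more than a number in 1 comparison, doubly floxed 6 h against untreated (lowest correlation 0.13 over 5 pairs), where the mean was -0.07 once experiment means were removed and the block left 8 calls.

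Leaving out 1 library gave 2 to 6 calls in floxed controls at 24 h, 3 to 5 at 24 h against 6 h and 0 to 1 at 48 h against 24 h. It gave 0 to 3 for Il10ra mutants at 24 h, 1 to 5 at 48 h and 1 to 3 in the difference of responses. The range was 2 to 4 for doubly floxed controls at 48 h, 2 to 3 for Il10ra mutants against them, 2 to 4 for double mutants against Il10ra mutants and 0 to 2 for C57BL/6.

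Over all genes, limma called 377 at 48 h against 24 h, against 744 by DESeq2, 1933 with no experiment term and 20 with only the groups compared. With only the groups compared the counts were 1543 for 2720 at 24 h against 6 h, 508 for 336 at day 7, 27 for 382 in mutants at 6 h and 1 for 405 at 24 h. The 382 were 253 by edgeR and 186 with no experiment term, and the 405 were 665 by DESeq2 and 177 with the replicate block. The 1 gene of untreated mutants was 2 by edgeR, DESeq2, no experiment term or only the groups compared. For double mutants the 8 at 6 h were 17 by edgeR, 95 by DESeq2 (67 higher and 28 lower), 13 with pseudocount 5 or only the groups compared and 4 with no experiment term. The 3 untreated were 1 with only the groups compared, and the 3370 against Il10ra mutants 2181 with the replicate block. Depth limits Pfkp and Pgk1, at few reads.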

Other observations

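The 48 h library of the double mutant experiment whose labels name different genotypes had 109.8 normalised reads of Pfkfb3, 77.3 of Slc2a1, 324 of Ldha, 574 of Pkm, 42.9 of Hif1a and 71.1 of Eno1. It had 467 normalised reads of Il10ra and 266 of Tnf.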
